A study of Homo sapiens with 6 samples.

Results

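Neuroendocrine and neuronal marker genes are the usual readout for the neuroendocrine state of prostate cancer, and 9 of them are described here in LNCaP cells with RB knockdown. The set holds NTS, CHGA, SYT4, SYP, ENO2, TUBB3, MAP1B, INSM1 and SOX2, that is 9 of the 22279 transcript IDs in the count table, with 1 ID per gene. Members were taken by name from GENCODE, and the set was put together with the difference between the groups already known, MAP1B being added for its large fall. In GENCODE the genes lie on chromosomes 12 (NTS and ENO2), 14 (CHGA), 18 (SYT4), X (SYP), 16 (TUBB3), 5 (MAP1B), 20 (INSM1) and 3 (SOX2), so no more than a pair shares a chromosome. Their transcripts in the table are ENST00000256010 (NTS), ENST00000216492 (CHGA), ENST00000255224 (SYT4), ENST00000263233 (SYP), ENST00000229277 (ENO2), ENST00000315491 (TUBB3), ENST00000296755 (MAP1B), ENST00000310227 (INSM1) and ENST00000325404 (SOX2). The shRB and shCON values of the 9 members are given as a description, without a test, because the set was chosen on this contrast. LNCaP is an established androgen-sensitive human prostate cancer line, grown from a lymph node metastasis.

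The shRB group held 3 RNA-seq libraries from LNCaP cells carrying a hairpin against RB, and the shCON group held 3 libraries from LNCaP cells carrying a control hairpin. Both groups had spent 72 h in CDT, which the labels list as a treatment that arrests the cell cycle and the series ties to a lack of hormone, so no library represents cells with hormone. The labels give a single hairpin name per group, so the effect of RB loss and that of the hairpin or cell population cannot be told apart. Nothing in them states that libraries of one group are independent cultures. The p-values here thus reflect library-to-library spread alone, which may be technical. Library totals were 9780579 to 10898768 counts in shRB and 6115310 to 20091488 counts in shCON. RB1 itself had 3.82 to 5.82 CPM (counts per 1000000 of the normalized library total) in shRB, against 52.7 to 56.5 CPM in shCON, so each library matched its label.

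Neuroendocrine cells of the prostate are rare secretory cells that store peptides and amines in dense-core vesicles and release them when calcium enters. They share with neurons a set of vesicle proteins, cytoskeletal proteins and transcription factors, many of which are held off in other tissues by the repressor REST. Prostate tumours can take on this state under androgen deprivation, often with loss of RB1, and SOX2 has been reported to act in that change. LNCaP cells are known to gain some of these features when androgen is withdrawn.

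Markers of luminal prostate cells were present in both groups. All 15 luminal markers on the list had enough counts to be tested, the keratins KRT8 and KRT18 among them, whereas of 12 markers of leukocytes, stroma, endothelium, muscle, basal cells and glia in the table, 7 were at 0 in every library and 2 could be tested. These were CD68 at 5.07 ± 0.15 CPM in shRB and 5.92 ± 0.91 CPM in shCON, and COL1A1 at 13.5 ± 1.76 CPM in shRB and 17.4 ± 1.69 CPM in shCON (SD, n = 3 each). Neither passed (edgeR adjusted p of 0.25 and 0.055), and 1 fell without shRB 2. The pan-leukocyte, endothelial and basal markers PTPRC, PECAM1 and KRT5 were among those at 0. The basal keratin KRT14 was not at 0, and it is named here after its counts were seen. It had 0, 1 and 0 counts in the shRB libraries, against 13, 3 and 3 counts in the shCON libraries, too few for a test. Of the 15 luminal markers, 5 rose and 3 fell, against 12.8% higher and 12.5% lower among all 11712 genes tested, and 6 fell without shRB 2. SLC45A3 (prostein) and KLK2 (a kallikrein protease) had the smallest p, with log2 fold changes of 0.997 and 0.98 (edgeR adjusted p of 5.2e-06 and 1.1e-05). KLK3 and ACPP were also among those that rose, and FOLH1 and STEAP2 among those that fell. These 4 were named after their values were seen. Among the members, SOX2, INSM1 and CHGA were at or near 0 counts and SYP was low. The other members were well detected. Per kilobase of transcript, SYT4, TUBB3, ENO2, NTS and MAP1B lay above 99.5%, 87.9%, 85.5%, 81.2% and 60.8% of IDs in shRB. In shCON they lay above 99.4%, 86.9%, 88.7%, 92.2% and 79.4%. The name of the set is used for its genes and not for the state of these cells.

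Letters of the regulatory DNA are shown for the 3 members whose promoters share a motif, which encode a secreted peptide, a tubulin and a granin. The RefSeq table for GRCh38.p14 held a window for 8 of the 9 members, and the 250 bases before each start were searched on both strands. The letters TGACNTCA, the form of the cyclic AMP response element, stood in the windows of NTS, TUBB3 and CHGA, that is 3 of 8 members, and in 6.86% of 34943 windows of all genes. Capitals mark the motif with 11 bases on each side, and all 3 sites are on the plus strand, at chr12:85874233-85874262, chr16:89923267-89923296 and chr14:92923085-92923114 in this order.
NTS: tgtacaatcaaTGACATCAtcctcctgctt
TUBB3: gccacccgcggTGACATCAgccgatgcgaa
CHGA: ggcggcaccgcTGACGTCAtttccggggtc

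The whole window of NTS is printed too, since NTS encodes a secreted peptide and is the most changed member with the motif. It spans chr12:85874045-85874294 on the plus strand of GRCh38.p14, with the same 8 letters in capitals.
NTS window: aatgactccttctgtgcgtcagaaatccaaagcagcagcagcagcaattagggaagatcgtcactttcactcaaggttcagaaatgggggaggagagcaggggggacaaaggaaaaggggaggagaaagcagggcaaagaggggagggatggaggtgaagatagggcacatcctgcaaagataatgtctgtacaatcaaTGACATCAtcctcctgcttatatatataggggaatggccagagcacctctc

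The motif began 51 bases before the RefSeq start of NTS, 64 bases before that of TUBB3 and 54 bases before that of CHGA. NTS and TUBB3 carry the same 8 letters, and CHGA carries the palindromic form TGACGTCA, known as the full response element. The counted transcripts of TUBB3 and CHGA start 63 and 70 bases further upstream in GENCODE than in RefSeq, so with those starts the letters lie at or behind the start. The AP-1 letters TGANTCA were found in the window of 1 member, ENO2, and in 6.59% of all windows. The E2F letters TTTNNCGC stood in 0 of the 8 windows and in 5.89% of all windows, and the REST half-site letters GGACAG in 0 of 8 and in 17.2%. A match is a description of the letters and no match says only that the letters are not in this window.

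NTS encodes the precursor of neurotensin and neuromedin N, short peptides that neuroendocrine cells secrete and that signal through the receptors NTSR1, NTSR2 and SORT1. NTS had 27.1, 18.8 and 23.3 CPM in the shRB libraries, against 69.2, 53.9 and 69.5 CPM in the shCON libraries. The groups did not overlap, and the lowest library of each group was its number 2. The means were 23.0 ± 4.18 CPM in shRB and 64.2 ± 8.93 CPM in shCON (SD, n = 3 each), a log2 fold change of −1.47 ± 0.14 (SE), or 2.78-fold lower. Among all tested genes, NTS ranked 148 from the largest fall. Bulk RNA was measured, so fewer cells with NTS and less NTS RNA per cell cannot be told apart, here and for the other members.

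Of the neurotensin receptors, only SORT1 had enough counts to be tested. NTSR1, the main G protein-coupled receptor of neurotensin, had 3, 3 and 3 counts in the shRB libraries, against 15, 4 and 1 counts in the shCON libraries, too few for a test. NTSR2 was at 0 in all 6 libraries. SORT1, the sortilin sorting receptor that also binds neurotensin, averaged 53.5 ± 3.05 CPM in shRB and 57.9 ± 4.52 CPM in shCON (log2 fold change −0.11 ± 0.09 SE, edgeR adjusted p = 0.43).

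CHGA encodes chromogranin A, the granin that packs dense-core vesicles and the serum marker of neuroendocrine tumours. It had 1, 0 and 2 counts in the shRB libraries and 0, 0 and 0 counts in the shCON libraries. Over the shCON group a count of 0 allows a level of up to 0.0822 CPM, and over the shRB group the floor of 3 counts is 0.0975 CPM, so both groups were at or under the floor and no fold is given. These floors cover counting error only.

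SYT4 encodes a synaptotagmin of dense-core and other secretory vesicles, a membrane protein of the calcium-sensor family. It was by far the most abundant member, with 2608, 2168 and 2719 CPM in the shRB libraries, against 1963, 1741 and 1886 CPM in the shCON libraries. The groups did not overlap, though the lowest shRB library, number 2, lay near the highest shCON library. The means were 2498 ± 291.0 CPM in shRB and 1863 ± 112.9 CPM in shCON (SD, n = 3 each), a log2 fold change of 0.42 ± 0.09 (SE). Counted per kilobase of transcript, SYT4 lay above 99.5% of all IDs of known length in shRB and above 99.4% in shCON. It made up 98.4%, 97.9% and 98.5% of the length-scaled counts of 13 synaptotagmin genes in the shRB libraries, against 97.5%, 96.7% and 97.4% in the shCON libraries.

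SYP encodes synaptophysin, the main membrane protein of small synaptic-like vesicles and a routine stain for neuroendocrine tumours. It had 20, 15 and 16 counts in the shRB libraries, against 40, 13 and 5 counts in the shCON libraries. As CPM these are 1.82, 1.59 and 1.54 in shRB, against 1.96, 1.30 and 0.816 in shCON, so the shCON libraries spanned the whole shRB range. The log2 fold change was 0.09 ± 0.30 (SE), and it was 0.57 without shCON 1 and −0.05 without shCON 3. SYP reached the filter's cutoff of 0.99 CPM in 3 shRB and 2 shCON libraries, and its shCON libraries alone would not have carried it. The antisense gene SYP-AS1 overlaps its exons and the use of strand in counting is not given, so the SYP count is uncertain.

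**Figure D1:**
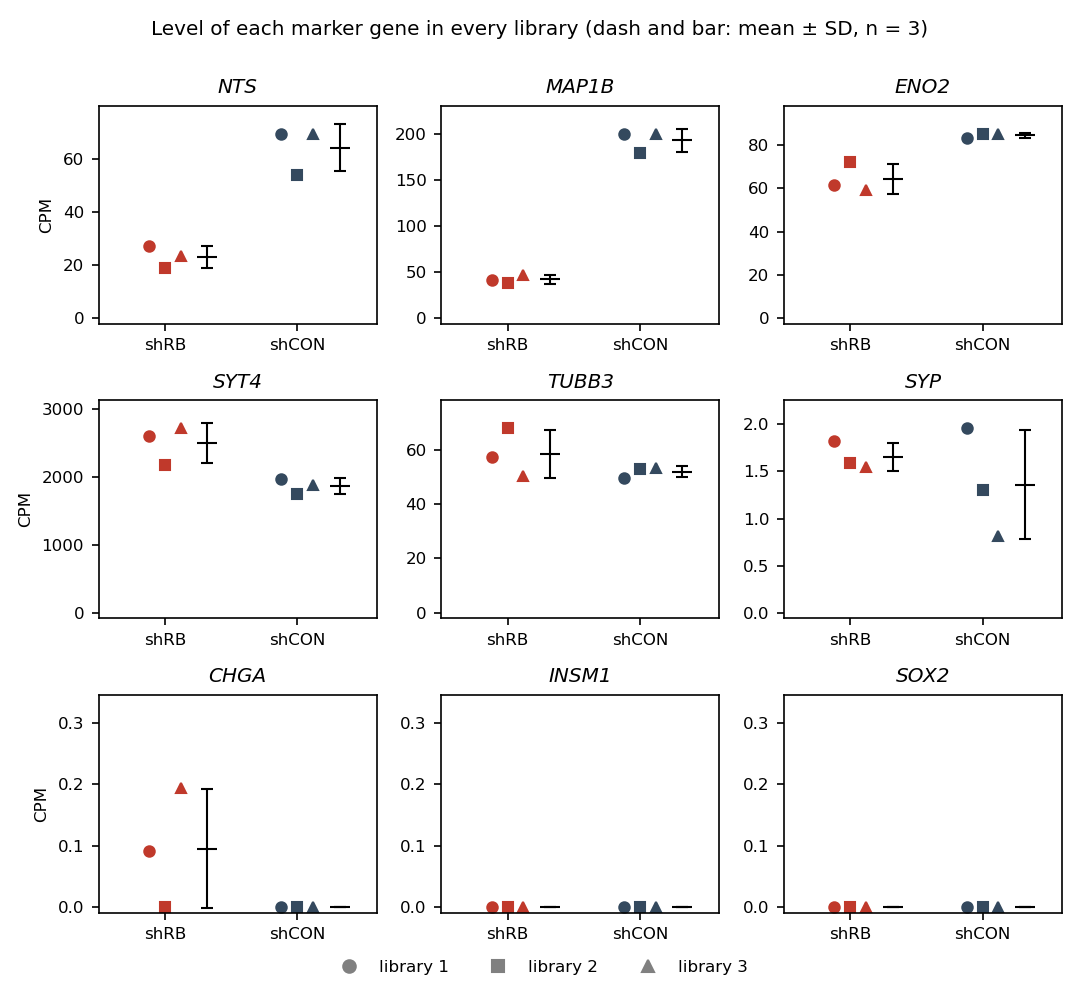
CPM of the 9 marker genes (vertical axes, linear, each with its own scale) in the 3 shRB libraries (red, left) and the 3 shCON libraries (dark, right), with the mean and SD (n = 3) as dash and bar. NTS, MAP1B and ENO2 sit lower in shRB and SYT4 sits higher, TUBB3 and SYP overlap, and CHGA, INSM1 and SOX2 are at or near 0.

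ENO2 encodes gamma enolase, the glycolytic enzyme known as neuron-specific enolase. ENO2 had 61.6, 72.3 and 59.2 CPM in the shRB libraries, against 83.3, 85.0 and 85.4 CPM in the shCON libraries. The groups did not overlap, and the shCON libraries were nearly equal while shRB 2 stood above the other shRB libraries. The means were 64.4 ± 6.98 CPM in shRB and 84.6 ± 1.12 CPM in shCON (SD, n = 3 each), a log2 fold change of −0.39 ± 0.09 (SE). Of the length-scaled counts of the enolases ENO1, ENO2 and ENO3, ENO2 held 2.66 ± 0.14% in shRB and 4.15 ± 0.26% in shCON. ENO1, the ubiquitous enolase, was at 1725 ± 276.0 CPM in shRB and 1423 ± 108.9 CPM in shCON (log2 fold change 0.28 ± 0.10 SE, edgeR adjusted p = 0.066).

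TUBB3 encodes class III beta-tubulin, a tubulin of neurons that some carcinomas also make. TUBB3 had 57.1, 67.9 and 50.3 CPM in the shRB libraries, against 49.4, 52.9 and 53.2 CPM in the shCON libraries. The groups overlapped, with shRB 3 inside the shCON range and shRB 2 the highest of all. The means were 58.5 ± 8.90 CPM in shRB and 51.8 ± 2.09 CPM in shCON (SD, n = 3 each), a log2 fold change of 0.18 ± 0.11 (SE) that was 0.07 without shRB 2. TUBB3 held 2.30 ± 0.16% of the length-scaled counts of 8 beta-tubulin genes in shRB and 2.36 ± 0.01% in shCON. The exons of TUBB3 overlap those of the readthrough gene AC092143.1 on the same strand, so its count is uncertain.

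MAP1B encodes a microtubule-associated protein of growing axons. It had 41.8, 37.6 and 47.1 CPM in the shRB libraries, against 200.1, 178.5 and 199.1 CPM in the shCON libraries. The groups were far apart, and within each group the number 2 library was the lowest. The means were 42.2 ± 4.75 CPM in shRB and 192.6 ± 12.2 CPM in shCON (SD, n = 3 each), a log2 fold change of −2.19 ± 0.09 (SE), or 4.56-fold lower. MAP1B ranked 56 from the largest fall among all tested genes, which is what brought it into the set. Its counts of 460, 355 and 488 in shRB, against 4079, 1778 and 1220 in shCON, rest on a transcript of 12036 bases.

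The share of MAP1B among 5 microtubule-associated protein genes rests on the counts it was chosen for, so it is no separate result. MAP1B made up a smaller share in shRB. It held 5.53%, 4.27% and 5.74% of the length-scaled counts of MAP1A, MAP1B, MAP1S, MAP2 and MAP4 in the shRB libraries, against 21.7%, 18.7% and 21.1% in the shCON libraries. MAP1A, the paralog of mature neurons, was at 1.18 ± 0.08 CPM per kilobase in shRB and 0.591 ± 0.14 in shCON, and MAP2, the dendritic protein, at 3.62 ± 0.59 in shRB and 2.22 ± 0.19 in shCON. Both rose (log2 fold changes of 0.92 ± 0.16 and 0.71 ± 0.13 SE, edgeR adjusted p of 0.0010 and 0.0013), and both were chosen after their values were seen. MAP4, the form found in most tissues, averaged 310.1 ± 14.3 CPM in shRB and 310.5 ± 15.8 CPM in shCON (edgeR adjusted p = 0.99).

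INSM1, a zinc finger factor that drives neuroendocrine differentiation, and SOX2, an HMG-box factor of stem and neural progenitor cells, had 0 counts in each of the 3 shRB and 3 shCON libraries. Over a group, 0 counts allow up to 0.0975 CPM in shRB and 0.0822 CPM in shCON, so expression was not detectable at this depth in either.

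Of the 9 members, 6 passed the filter on low counts, and CHGA, INSM1 and SOX2 did not. In 4 of these 6 (NTS, MAP1B, ENO2 and SYT4) the groups did not overlap, beside 41.1% of all 11712 tested genes whose groups did not overlap in CPM. The test called 25.3% of all tested genes in either direction. Since the members were picked on this contrast, nothing is read from that count. Of the 4, NTS, MAP1B and ENO2 were lower in shRB and SYT4 was higher, so the markers did not move one way.

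Scaled to transcript length, the order of the members differed between the groups. In shRB the order was SYT4 (607.9 ± 70.8 CPM per kilobase), TUBB3 (33.0 ± 5.03), ENO2 (26.6 ± 2.88), NTS (18.6 ± 3.38), MAP1B (3.51 ± 0.39) and SYP (0.661 ± 0.06). In shCON it was SYT4 (453.3 ± 27.5), NTS (51.9 ± 7.22), ENO2 (34.9 ± 0.46), TUBB3 (29.3 ± 1.18), MAP1B (16.0 ± 1.01) and SYP (0.545 ± 0.23; SD, n = 3 for all). Neighbours in the order did not overlap between libraries of a group, except TUBB3 (28.4 to 38.4) and ENO2 (24.4 to 29.8) in shRB. NTS thus stood next to SYT4 in shCON and below TUBB3 and ENO2 in shRB.

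**Figure D2:**
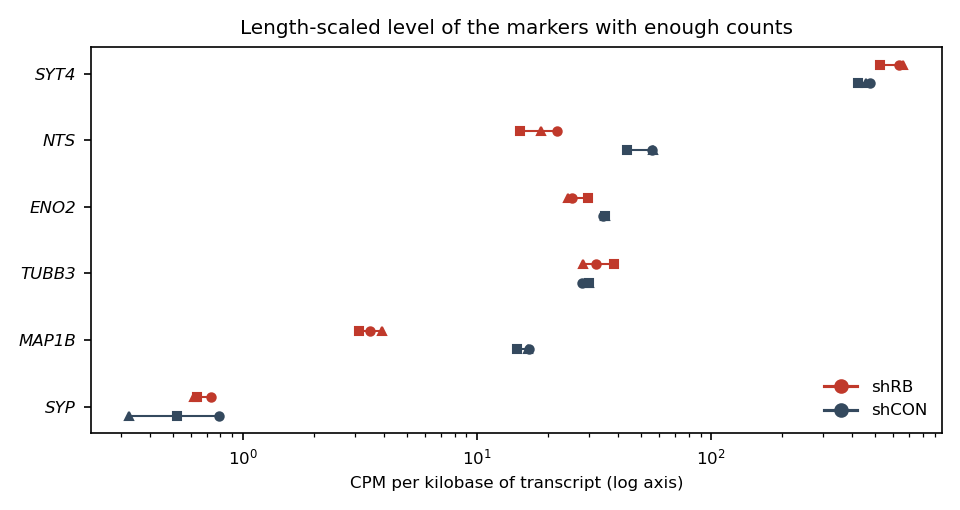
CPM per kilobase of transcript (horizontal log axis) of the 6 members that passed the filter, with each shRB library in red above each shCON library in dark, and lines spanning the 3 libraries of a group. SYT4 lies far to the right of the other members in every library, NTS and MAP1B shift left in shRB, and TUBB3 and SYP overlap.

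Gene order was used to set members beside their surroundings. The members were chosen on this contrast, and MAP1B for its fall, so a gap to unselected neighbours is partly built in. The values are a description. The 2 tested genes on each side of MAP1B (BDP1, MCCC2, MRPS27 and PTCD2) had log2 fold changes of −0.13, 0.52, −0.01 and −0.20, with a median of −0.07 beside −2.19 for MAP1B. Around NTS, METTL25, TMTC2, C12orf29 and CEP290 had −0.31, 0.04, −0.21 and −0.01, with a median of −0.11 beside −1.47 for NTS. Around ENO2, LRRC23, DSTNP2, ATN1 and C12orf57 lay between −0.22 and 0.08. The medians of chromosomes 5 and 12 over their 531 and 611 tested genes were −0.00 and −0.02. The 8 genes beside MAP1B and NTS lay between −0.31 and 0.52, and MCCC2 was called higher (edgeR adjusted p = 0.000146).

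The surroundings of SYT4 were mixed. RIT2, a neuronal small GTPase gene, and AC016205.1 on one side were higher, with log2 fold changes of 1.09 and 1.00 (edgeR adjusted p of 0.00053 and 0.035), and SETBP1 on the other side was lower at −0.62 (adjusted p = 0.0014), with EPG5 at −0.14. Chromosome 18 had a median of −0.06 over 164 tested genes. Around TUBB3, TCF25, MC1R, DEF8 and CENPBD1 had −0.65, 0.19, −0.05 and 0.25, and around SYP, GPKOW, PLP2, CCDC22 and FOXP3 had 0.09, 0.62, −0.24 and 0.06. Of these 8 genes, TCF25 and PLP2 passed the test (edgeR adjusted p of 9.8e-05 and 0.0010).

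**Figure D3:**
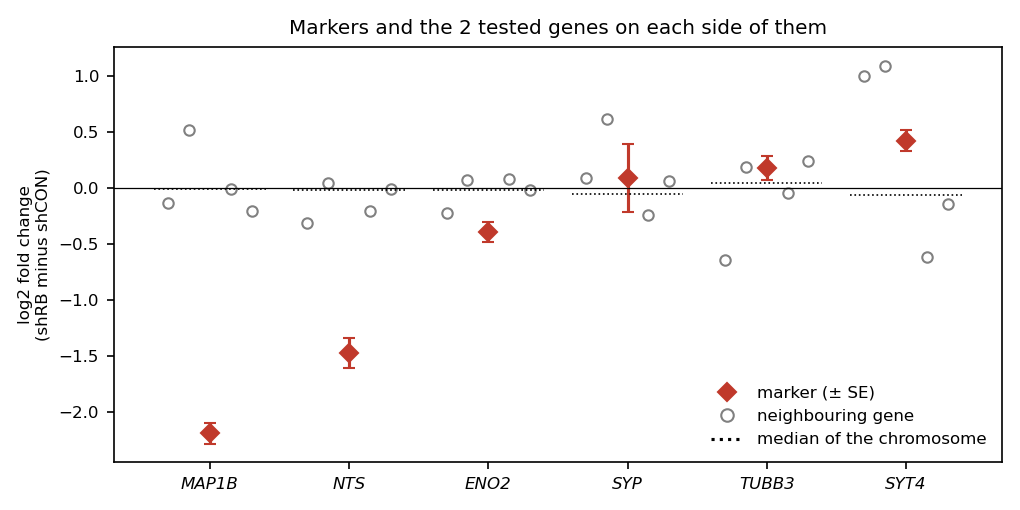
Log2 fold change, shRB minus shCON (vertical axis), of the 6 members with enough counts (diamonds, ± SE), the 2 nearest tested genes on each side (open circles) and the median of the chromosome (dotted line). MAP1B at −2.19 and NTS at −1.47 lie below all 4 of their neighbours, and SYT4 at 0.42 lies between neighbours at −0.62 and 1.09. The members, unlike the neighbours, were chosen on this contrast.

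Within groups, the deviations of the number 2 libraries followed the base composition of the members. SYP was left out for its few counts. Transcript GC content is 34.6% for NTS, 38.6% for SYT4, 44.9% for MAP1B, 55.2% for ENO2 and 62.6% for TUBB3. In shRB 2 the log2 CPM of these genes lay −0.28, −0.20, −0.16, 0.17 and 0.23 from the shRB mean, in the same order. In shCON 2 they lay −0.24, −0.10, −0.11, 0.01 and 0.03 from the shCON mean. Over 11674 tested genes, which are not independent replicates, the Spearman correlation of the deviation with GC content was −0.50, 0.69 and −0.54 in shRB 1 to 3 and −0.51, 0.52 and −0.09 in shCON 1 to 3. Without shRB 2 and shCON 2 the log2 fold changes were −1.45 for NTS, 0.47 for SYT4, −2.16 for MAP1B, −0.47 for ENO2, 0.09 for TUBB3 and 0.01 for SYP. SYT4, NTS, ENO2 and MAP1B thus differed as much or nearly as much without these libraries.

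**Figure D4:**
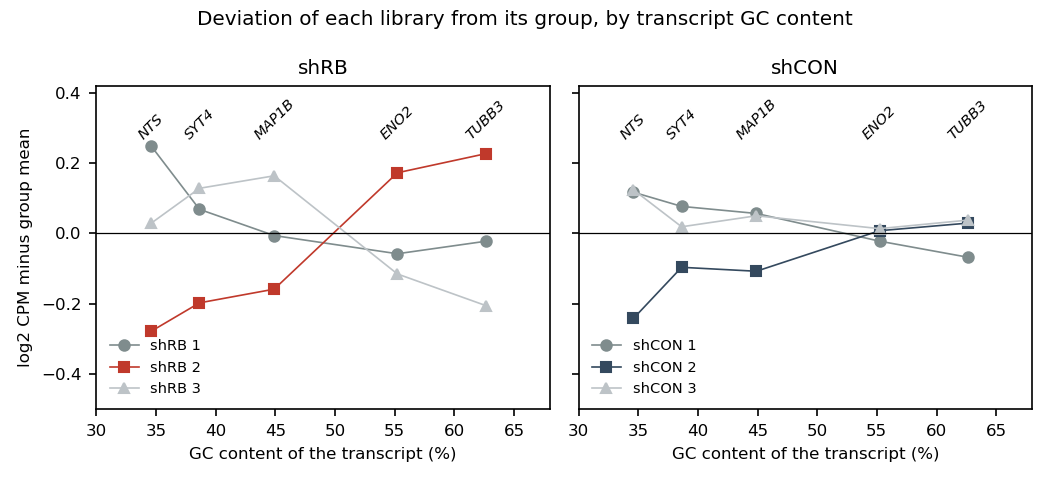
Log2 CPM of 5 members minus their group mean (vertical axis) against the GC content of the transcript in percent (horizontal axis), for the shRB libraries (left) and the shCON libraries (right). The number 2 libraries (squares) go from −0.28 and −0.24 at NTS to 0.23 and 0.03 at TUBB3.

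The genes with profiles most like the members' are named by Pearson r of log2 CPM over the 6 libraries, which form 2 groups, so that r mostly follows the difference between them. For MAP1B these were RLN1 (relaxin 1), H3F3B (histone H3.3) and AQP3 (an aquaporin), with r of 0.999, 0.998 and 0.998. For NTS they were EID1, RAVER2 and MMD (r of 0.999, 0.998 and 0.998), and 461 of 11673 other genes had r above 0.95. For ENO2 they were ZBTB5, FAM207A and DPYSL2 (0.997, 0.996 and 0.995). For SYT4 they were MELK, a mitotic kinase gene, FAR2 and PAXIP1 (0.997, 0.997 and 0.997). ERCC1, SSR4 and NME2 were nearest to TUBB3 (0.996, 0.986 and 0.984), and CMPK2, RIPK1 and SLC25A20 to SYP (0.981, 0.978 and 0.972). RLN1 has a close paralog with which it may share reads.

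Around the members, 12 lists of neuronal and regulatory genes were examined, 232 genes in all, of which 213 had a row and 114 had enough counts to be tested. Of these 114 genes, 31 rose, 17 fell and 66 did not pass (edgeR, adjusted p under 0.05 over all genes), that is 27.2% higher and 14.9% lower beside 12.8% and 12.5% of all tested genes. The median log2 fold change was 0.05 beside −0.01 for all tested genes. The lists were written with earlier results of these data known, so a surplus over all tested genes may be partly built in. This holds for the shares of each list below and for the luminal markers above, and all are given as a description. Leaving out shCON 1 gave 19 risers and 8 fallers, and leaving out shCON 3 gave 20 and 10. The counts over all tested genes moved too. They were 1499 higher and 1459 lower with all libraries, and 863 to 2074 higher and 912 to 1956 lower with 1 library left out.

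**Figure D5:**
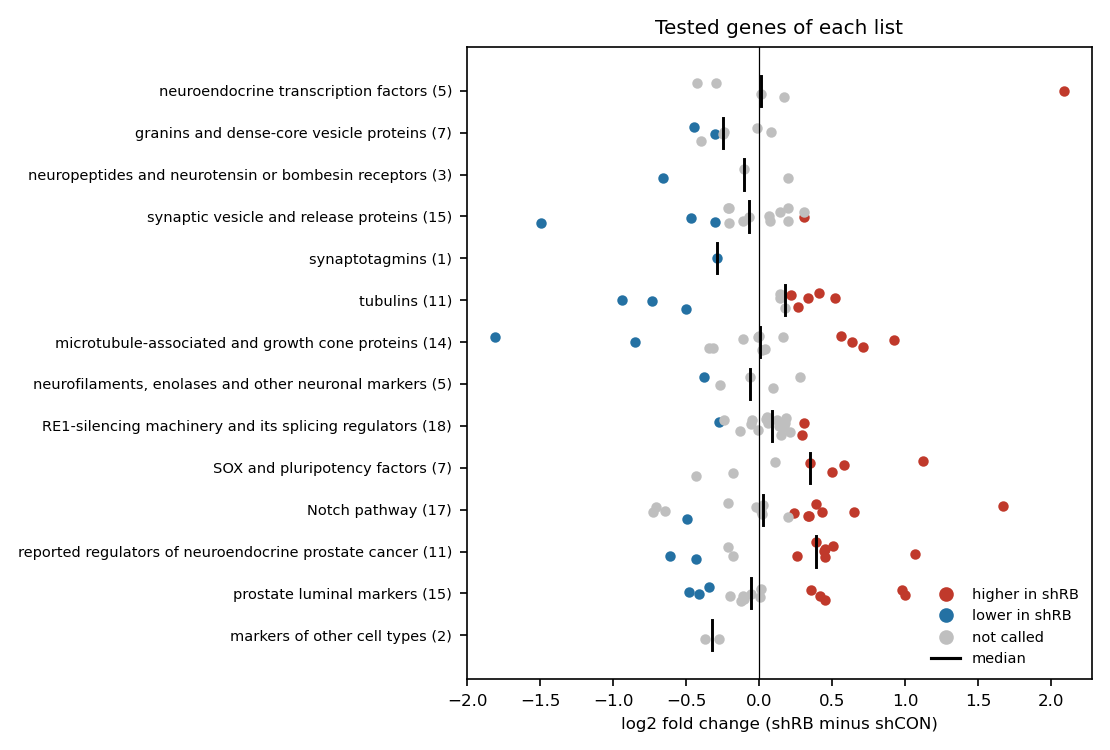
Log2 fold change, shRB minus shCON (horizontal axis), of each tested gene in the 12 neuronal and regulatory lists and the 2 lists of identity markers, with the number tested in brackets, red where edgeR called the gene higher, blue where it called it lower (adjusted p under 0.05), and a black bar at the median. The vesicle and peptide lists have medians from −0.29 to −0.07, and the SOX and regulator lists have 0.35 and 0.39.

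Most transcription factors of the neuroendocrine state did not pass the filter on low counts. Of 19 in the table, 7 were at 0 in every library, NEUROD1 among them, and 5 could be tested. Of the 5, 1 rose and 0 fell (1 fell without shRB 2), beside 12.8% and 12.5% of all tested genes. The rise was in RFX6, a factor of pancreatic endocrine cells, at 5.04 ± 0.71 CPM in shRB and 0.997 ± 0.72 CPM in shCON (SD, n = 3 each; log2 fold change 2.08 ± 0.31 SE, edgeR adjusted p = 0.00027). RFX6 had 5.28, 4.24 and 5.60 CPM in the shRB libraries, against 1.42, 1.41 and 0.163 CPM in the shCON libraries, with no overlap. It reached the filter's cutoff of 0.99 CPM in 3 shRB and 2 shCON libraries. The shCON libraries of RFX6 alone would not have carried it, so its call, the list's only rise, is conditional on its shRB level. POU3F2, a neural factor reported in neuroendocrine prostate cancer and chosen here after its counts were seen, had 4, 2 and 4 counts in shRB, against 10, 4 and 4 counts in shCON. The list's median was 0.01, with either sign when 1 library was left out (−0.08 to 0.08), and −0.36 without a filter on low counts.

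In the list of granins and dense-core vesicle proteins, 0 of 7 tested genes rose and 2 fell (median −0.25). As shares this is 0% higher and 28.6% lower, beside 12.8% and 12.5% of all tested genes. The granins CHGB, SCG2 and SCG3, the closest relatives of CHGA, had 2, 3 and 0 counts over all 6 libraries. The fallers act in peptide processing. CPE, carboxypeptidase E, averaged 203.8 ± 13.1 CPM in shRB and 252.0 ± 17.6 CPM in shCON (log2 fold change −0.31 ± 0.08 SE, edgeR adjusted p = 0.012). PAM, the peptide-amidating enzyme, averaged 18.6 ± 2.78 CPM in shRB and 25.2 ± 2.52 CPM in shCON (−0.45 ± 0.13 SE, adjusted p = 0.021). CPE lost its call without shCON 1 (adjusted p = 0.079) and without shCON 3 (0.063), and PAM without shCON 1 (0.12) and without shCON 2 (0.059), while 4 genes of the list fell without shRB 2.

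Among neuropeptides and their receptors, 10 of 17 genes in the table were at 0 in every library. Of 3 tested genes 0 rose and 1 fell (median −0.11), beside 12.8% and 12.5% of all tested genes. NMB, the bombesin-like peptide neuromedin B, averaged 3.85 ± 0.89 CPM in shRB and 6.06 ± 0.76 CPM in shCON (log2 fold change −0.66 ± 0.19 SE, edgeR adjusted p = 0.024). The call was lost under DESeq2 (adjusted p = 0.070) and without shRB 1 (0.103), shRB 3 (0.067), shCON 1 (0.107) or shCON 3 (0.077). GAL, the neuropeptide galanin, chosen after its values were seen, was at 23.0 ± 3.26 CPM in shRB and 20.1 ± 0.47 CPM in shCON and did not pass (adjusted p = 0.25).

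In the list of synaptic vesicle and release proteins, 1 of 15 tested genes rose and 3 fell (median −0.07, and 0.08 without shRB 1 and 0.02 without shCON 1). Shares of 6.67% higher and 20% lower stand beside 12.8% and 12.5% of all tested genes. SV2C, a vesicle glycoprotein, averaged 0.842 ± 0.11 CPM in shRB and 2.48 ± 0.27 CPM in shCON (log2 fold change −1.50 ± 0.27 SE, edgeR adjusted p = 0.0013). VAMP2, the vesicle SNARE synaptobrevin, averaged 35.4 ± 4.13 CPM in shRB and 49.0 ± 1.64 CPM in shCON (−0.47 ± 0.10 SE, adjusted p = 0.0042). SV2C passed the filter on low counts through its shCON libraries alone, with 0 of 3 shRB libraries at its cutoff of 0.99 CPM, so its call is conditional on that. The gene that rose was SYNGR2, synaptogyrin 2, a form of synaptogyrin found outside neurons, at 600.5 ± 46.6 CPM in shRB and 487.1 ± 26.8 CPM in shCON (0.30 ± 0.08 SE, adjusted p = 0.012), and its call was lost without shCON 1 (adjusted p = 0.084). The third faller was RAB3B, chosen after its values were seen, at −0.30 ± 0.10 (adjusted p = 0.035). The plasma membrane SNARE SNAP25 had 1 count over all 6 libraries.

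Apart from SYT4, 12 synaptotagmins had a row, and 1 of them could be tested. SYT7, a slow calcium sensor of secretory lysosomes, averaged 48.1 ± 3.01 CPM in shRB and 58.8 ± 5.32 CPM in shCON (log2 fold change −0.29 ± 0.09 SE, edgeR adjusted p = 0.038), opposite in sign to the 0.42 of SYT4. The call was lost without shRB 1 (adjusted p = 0.117), shRB 3 (0.116), shCON 1 (0.057), shCON 2 (0.173) or shCON 3 (0.087).

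Tubulins moved in both directions around TUBB3, with 5 of 11 tested genes higher, 3 lower and a median of 0.18. Their shares were 45.5% higher and 27.3% lower, beside 12.8% and 12.5% of all tested genes. TUBA1A, the alpha-tubulin of developing neurons, fell to 42.8 ± 3.50 CPM in shRB, against 81.9 ± 1.81 CPM in shCON (SD, n = 3 each; log2 fold change −0.94 ± 0.09 SE, edgeR adjusted p = 5.1e-06). TUBA1B, a ubiquitous alpha-tubulin, rose to 1023 ± 56.5 CPM in shRB, against 714.2 ± 16.2 CPM in shCON (0.52 ± 0.07 SE, adjusted p = 0.00016). TUBG2, a gamma-tubulin, fell to 16.2 ± 1.57 CPM in shRB, against 26.99 ± 1.00 CPM in shCON (−0.74 ± 0.11 SE, adjusted p = 0.00033). Alpha-tubulin genes are near-identical, and the exons of TUBA1A overlap those of TUBA1C on the opposite strand, so these counts are uncertain. TUBB, TUBA1C, TUBA4A and TUBG1 also rose and TUBB2A also fell, all named after their values were seen. The number that rose was 2 when shCON 1 was left out, and 3 when shCON 2 or shCON 3 was.

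Of 14 tested microtubule-associated and growth cone genes, 4 rose and 2 fell (median 0.01, and −0.05 to 0.08 with 1 library left out). That is 28.6% higher and 14.3% lower, beside 12.8% and 12.5% of all tested genes. The fallers were DPYSL3 and DPYSL2, collapsin response mediators that shape the growth cone. DPYSL3 had 3.76 ± 0.66 CPM in shRB and 13.4 ± 1.58 CPM in shCON (log2 fold change −1.81 ± 0.17 SE, edgeR adjusted p = 5.7e-06). DPYSL3 had 3.00, 4.03 and 4.25 CPM in the shRB libraries, against 12.2, 12.8 and 15.2 CPM in the shCON libraries, with no overlap. DPYSL2 had 28.5 ± 6.68 CPM in shRB and 51.3 ± 2.13 CPM in shCON (−0.85 ± 0.13 SE, adjusted p = 0.00046). STMN1, stathmin, a microtubule destabilizer of dividing cells, had 281.2 ± 11.6 CPM in shRB and 190.7 ± 5.31 CPM in shCON (0.56 ± 0.07 SE, adjusted p = 7.0e-05). Besides STMN1, MAP1A and MAP2, GPRIN1 rose, named after its values were seen.

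Of 5 tested genes among neurofilaments, enolases and other neuronal markers, 0 rose and 1 fell, beside 12.8% and 12.5% of all tested genes. The list's median was −0.06, and it was 0.05 without shRB 3 and 0.02 without shCON 2. The fall was in NCAM2, a neural adhesion molecule, at 238.3 ± 39.2 CPM in shRB and 310.0 ± 21.1 CPM in shCON (log2 fold change −0.38 ± 0.11 SE, edgeR adjusted p = 0.018), and the call was lost without shCON 1 (adjusted p = 0.079) and without shCON 3 (0.069). One gene of the list rose without shRB 1 and 1 without shRB 3. NCAM1, which encodes CD56, the adhesion molecule stained in neuroendocrine tumours, had 1, 1 and 2 counts in the shRB libraries, against 5, 4 and 0 counts in the shCON libraries. NCAM1 and UCHL1, the neuronal ubiquitin hydrolase with 19, 4 and 1 counts in shRB, against 9, 4 and 9 counts in shCON, were chosen after their counts were seen.

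REST, the repressor of neuronal genes, averaged 80.3 ± 7.27 CPM in shRB and 94.9 ± 9.04 CPM in shCON (SD, n = 3 each; log2 fold change −0.24 ± 0.09 SE, edgeR adjusted p = 0.077) and did not pass. It passed without shCON 2 (adjusted p = 0.045), without shRB 2 and shCON 2 together (0.0035) and without a filter on low counts (0.047). Of 18 tested genes of its machinery and the splicing factors around it, 2 rose, 1 fell and 15 did not pass (median 0.09). These shares, 11.1% higher and 5.56% lower, lay under the 12.8% and 12.5% of all tested genes. PTBP1, the splicing repressor of neuronal exons, had 383.0 ± 24.8 CPM in shRB and 310.3 ± 12.3 CPM in shCON (0.30 ± 0.07 SE, adjusted p = 0.0086). RCOR1, the corepressor CoREST, fell by 0.28 on the log2 scale (adjusted p = 0.015), and CTDSPL, a small phosphatase of the REST complex, rose by 0.29 (adjusted p = 0.018). SRRM4, the neuronal splicing factor that inactivates REST and was chosen here after its counts were seen, had 1 count over all 6 libraries.

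The calls in this list depended on single libraries, and the number of calls over all genes also moved when single libraries were left out. PTBP1 had an adjusted p of 0.051 without shCON 1 and 0.053 without shCON 3. RCOR1 had 0.053 without shCON 1 and 0.084 without shCON 3. CTDSPL had 0.080 without shCON 1, 0.076 without shCON 3 and 0.057 without shRB 3. The numbers of genes higher and lower were 0 and 0 without shCON 1 and without shCON 3, 4 rose without shRB 2, 1 rose without shRB 3 and 2 fell without shCON 2.

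SOX2 was at 0, and other members of its family were examined beside it. Of 7 tested SOX and pluripotency factors, 4 rose and 0 fell (median 0.35), with 1 lower without shRB 2. Rises made up 57.1% and falls 0%, beside 12.8% and 12.5% of all tested genes. SOX9, a progenitor factor of prostate epithelium, had 60.7 ± 3.28 CPM in shRB and 28.0 ± 0.78 CPM in shCON (SD, n = 3 each; log2 fold change 1.12 ± 0.09 SE, edgeR adjusted p = 1.5e-06). SOX9 had 58.1, 59.6 and 64.4 CPM in the shRB libraries, against 27.2, 28.0 and 28.7 CPM in the shCON libraries, with no overlap. SOX13 rose as well, while SOX4 (log2 fold change −0.18, edgeR adjusted p = 0.072) and SOX8 (0.10, adjusted p = 0.58) did not pass. These 3 were named after their values were seen. SOX12 had 202.1 ± 31.4 CPM in shRB and 143.4 ± 7.50 CPM in shCON (0.50 ± 0.10 SE, adjusted p = 0.0028). SOX11, a factor of neural progenitors in the same subgroup as SOX12, had 12.2 ± 1.31 CPM in shRB and 8.07 ± 0.80 CPM in shCON (0.58 ± 0.14 SE, adjusted p = 0.0093).

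The Notch pathway, which holds neuroendocrine factors off in many tissues, had 7 of 17 tested genes higher and 1 lower (median 0.03, beside 41.2% higher in the list and 12.8% over all genes). HES1, the Notch target that represses neuroendocrine factors, had 30.3 ± 1.65 CPM in shRB and 9.55 ± 1.09 CPM in shCON (SD, n = 3 each; log2 fold change 1.67 ± 0.12 SE, edgeR adjusted p = 5.3e-07). The ligand gene JAG1 had 158.3 ± 11.04 CPM in shRB and 117.6 ± 2.08 CPM in shCON (0.43 ± 0.08 SE, adjusted p = 0.0011), and the receptor gene NOTCH3 had 130.7 ± 4.79 CPM in shRB and 103.6 ± 7.49 CPM in shCON (0.33 ± 0.08 SE, adjusted p = 0.0071). The fall was in RBPJ, the DNA-binding partner of Notch, chosen after its values were seen, at −0.50 ± 0.16 (adjusted p = 0.033). DLL3, the inhibitory ligand known as a surface marker of neuroendocrine tumours and also chosen after its values were seen, had 16.1 ± 2.74 CPM in shRB and 16.4 ± 0.28 CPM in shCON (adjusted p = 0.92). The count higher was 4 without shCON 1 and 4 without shCON 3, and the count lower was 0 without shCON 1, shCON 2 or shCON 3 and 2 without shRB 2.

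Among regulators reported for neuroendocrine prostate cancer, 7 of 11 tested genes rose and 2 fell (median 0.39). This was 63.6% higher and 18.2% lower, beside 12.8% and 12.5% of all tested genes. PEG10, a retrotransposon-derived gene, had 9.12 ± 0.73 CPM in shRB and 4.29 ± 0.30 CPM in shCON (SD, n = 3 each; log2 fold change 1.06 ± 0.15 SE, edgeR adjusted p = 0.00022), though its exons overlap those of SGCE on the opposite strand and its count is uncertain. CBX5, heterochromatin protein HP1 alpha, had 346.8 ± 20.3 CPM in shRB and 253.7 ± 6.54 CPM in shCON (0.45 ± 0.07 SE, adjusted p = 0.00050). EZH2 and AURKA, a histone methyltransferase and a mitotic kinase that also belong to the genes of dividing cells, were chosen after their values were seen and had 0.45 ± 0.15 and 0.50 ± 0.10 (adjusted p of 0.039 and 0.0034). The count of 7 that rose was 4 without shRB 3 and 4 without shCON 3.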

How the data were processed

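RNA-seq of 6 LNCaP libraries was deposited by the authors as a table of raw counts by transcript ID. The submitters' processing notes list STAR, HOMER, edgeR and the build hg19, with no version. Neither the annotation nor the counting options, strand included, are stated there. Overlapping, antisense and near-identical genes may therefore share reads. Of 22279 IDs, 22182 matched GENCODE release 29, which describes another build and gave names, gene order, length and GC content. The 97 unmatched IDs (0.377% of counts) stayed in library totals. Listed genes without a row were not analysed here.

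Counts were tested with edgeR 4.0.16 in R 4.3.3 (filterByExpr, minimum count 10 and minimum total 15; TMM; quasi-likelihood F test; Benjamini-Hochberg adjustment over 11712 genes; threshold 0.05). SE is the log2 fold change divided by the square root of F. Log2 CPM has a prior count of 2. Length-scaled levels divide CPM by transcript length in kilobases. Chi-square per degree of freedom between replicates was 1.97 to 9.05, above sampling noise, so none was treated as a duplicate.

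Members and lists were chosen with earlier results of these data known. Named were all members, RB1, REST, SORT1 and NTSR1, the 3 called genes with the smallest p in each list, neighbours (2 per side) and the 3 most similar profiles. Some genes that this rule names are not reported here. The test was checked on simulated counts with 200 of 11620 genes changed. It recovered 24%, 74%, 76% and 98% of changes of 1.25, 1.5, 2 and 4 fold, so most of the smallest changes were missed. Of its 147 calls, 11 (7.48%) were false. Alternatives were DESeq2 1.42.0, limma-voom (limma 3.58.1), other normalizations and filters, a robust fit, a replicate block, a threshold of 0.01, each library left out and, chosen after seeing the data, shRB 2 and shCON 2 left out together.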

Additional observations from a re-analysis of the deposited data

How the results depend on the processing

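Of the 6 members with enough counts, 5 kept their sign under all 16 alternatives, and SYP did not (−0.05 without shCON 3). MAP1B ranged from −2.27 to −2.11, NTS from −1.61 to −1.34, ENO2 from −0.48 to −0.34, SYT4 from 0.36 to 0.52 and TUBB3 from 0.07 to 0.27. Of the 34 other named genes, all kept their sign and 24 kept their side of the threshold throughout. Over all genes, 1499 rose and 1459 fell, and of the listed genes 31 and 17. With 1 library left out these ranged from 863 to 2074, 912 to 1956, 19 to 32 and 8 to 25. At an adjusted p under 0.01 they were 787, 793, 18 and 8. With the replicate number as a block, 2202 genes and 38 listed genes rose, 2294 and 27 fell, and REST passed (adjusted p = 0.00438). Deviations of same-numbered libraries correlated with r of 0.235, 0.352 and −0.00 for numbers 1 to 3, and the labels state no pairing, so the numbers were not taken to pair the samples, although the number 2 libraries share a deviation with GC content. Without shRB 2 and shCON 2, 27 listed genes fell. The cause of these shifts was not tested. Depth limits statements on CHGA, INSM1 and SOX2 to the floors given.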
